A study of Mus musculus with 40 samples.

Results

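Uteri of prepubertal mice that had been given anti-Müllerian hormone (AMH) alone were compared at 24 h and at 4 h after treatment, across all genes measured. The comparison took 10 of the 40 libraries of the study, which were the 5 from AMH-treated uteri at 24 h and the 5 from AMH-treated uteri at 4 h. It covered the 14224 genes, 12490 of them protein-coding, that reached 1 FPKM (a read count scaled to gene length and library size) in at least 5 of these 10 libraries, out of 54532 genes listed. Bulk RNA of whole uterus was sequenced in 8 groups of 5 libraries: AMH, doxorubicin with AMH, doxorubicin, and vehicle, each at 24 h and at 4 h. The mice are described as being at postnatal day 25, AMH was given at 0.75 mg/kg, doxorubicin, an anthracycline that damages DNA, at 3 mg/kg in 2 weekly doses, and the controls, called vehicle here, are labelled PBS/Saline. The labels do not say how often AMH was given by itself or from which dose the hours were counted, and they give neither strain, genotype nor the clock hour of harvest. Time since treatment, time of day at harvest and age therefore cannot be told apart within either treatment. The vehicle libraries of the same 2 times were used to see how the time change without AMH compared. The libraries carry biological replicate numbers, but no label says that each came from 1 mouse, so p-values measure the spread between these libraries. In bulk tissue, fewer cells of a type and less RNA per cell cannot be told apart.

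The circadian clock of a cell is a feedback loop in which BMAL1 (gene Arntl) and CLOCK or NPAS2 bind E-box motifs and switch on Per, Cry, Nr1d1, Nr1d2, Dbp, Tef and Hlf, whose products close the loop. PER and CRY proteins block the activators, the REV-ERB receptors (Nr1d1, Nr1d2) repress Arntl and Nfil3, and the PAR-bZIP factors DBP, TEF and HLF compete with NFIL3 at D-box motifs. The clock runs in most tissues, the uterus included. AMH is a TGF-beta family hormone that makes the Müllerian duct regress in the male embryo. It binds its own type II receptor Amhr2, which the mesenchyme of the duct and the stroma of the uterus express, and it works through BMP type I receptors and SMAD1, SMAD5 and SMAD9, which switch on Id genes and other targets.

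Depth, as rebuilt reads assigned to genes, was 18464642 to 25412824 in the 24 h libraries and 18026396 to 22809071 in the 4 h libraries after AMH. Markers of the uterus were present in all 10 libraries: Esr1, the oestrogen receptor, averaged 47.3 ± 6.12 FPKM at 24 h and 44.4 ± 2.73 FPKM at 4 h (SD, n = 5 each), Pgr, the progesterone receptor, 52.9 ± 14.5 and 52.6 ± 4.83 FPKM, and Hoxa11, a uterine patterning factor, 49.5 ± 11.3 and 53.4 ± 7.08 FPKM. A pair of the 24 h libraries stood apart. AMH 24 h library 3 had the highest summed level of mitosis genes (687 FPKM, with 32.7 FPKM in the lowest 24 h library and 37.7 to 189 FPKM at 4 h), of cholesterol synthesis genes and of ovary markers (265 FPKM, against 47.6 to 53.4 FPKM at 4 h). Its score of oestrogen-responsive secretory genes lay 1.00 above the median of all 40 libraries on the log2 scale. AMH 24 h library 1 had the highest summed adipocyte markers (1083 FPKM, against 16.8 to 400.0 FPKM at 4 h) and squamous epithelium markers (510 FPKM, against 5.29 to 473 FPKM at 4 h), and its Pearson correlation with library 3 was 0.8531, the lowest within a group.

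At 24 h after AMH, the clock genes Nr1d1, Nr1d2, Per3, Ciart, Dbp, Tef and Hlf were lower than at 4 h, Dbp and Nr1d1 by the most, while Arntl, Nfil3 and chaperones of the endoplasmic reticulum (ER) and the cytosol were higher. On the log2(FPKM + 1) scale, tested by limma with Benjamini-Hochberg adjustment over all 14224 genes and a threshold of 0.05, 90 genes rose (0.633% of genes tested) and 66 fell (0.464%), 156 in all (1.1%). The median change of all genes tested was 0.01. For 152 of the 156 the 5 libraries at 24 h and the 5 at 4 h did not overlap; over all genes tested, all 24 h libraries were above all 4 h libraries in 4.96% and below them in 3.49%. The evidence per gene was shallow: 3767 genes had an unadjusted p under 0.05, and 151 of the 156 calls had an adjusted p between 0.03 and 0.05.

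**Figure D1:**
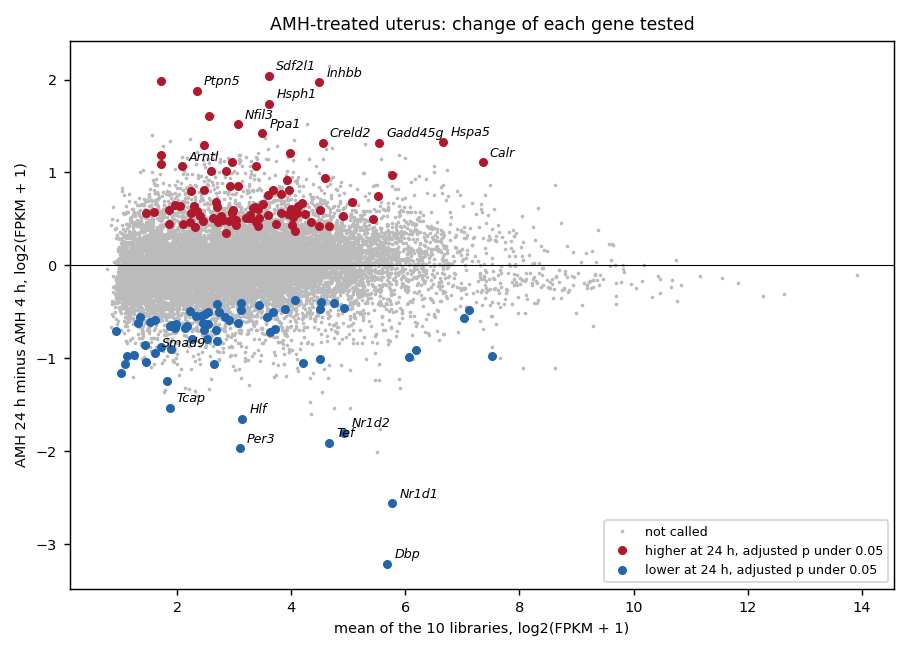
Change of each gene tested between AMH 24 h and AMH 4 h (vertical axis, difference of group means in log2(FPKM + 1)) against its mean level over the 10 libraries (horizontal axis, log2(FPKM + 1)); red and blue points are the 90 genes that rose and the 66 that fell. Dbp and Nr1d1 lie lowest at -3.21 and -2.56, and the genes that rose reach 2.04 at Sdf2l1.

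How many genes passed depended on single libraries, and each of the 10 moved the count by more than 1.5 times. Without AMH 24 h library 1, 2376 genes passed (16.7%), 8.55% of genes tested being higher and 8.16% lower. Without AMH 24 h library 3, 383 passed (2.69%), 1.75% higher and 0.942% lower. The counts were 3, 6 and 98 without AMH 24 h library 2, 4 and 5, and 2, 8, 4, 2 and 2 without AMH 4 h library 1, 2, 3, 4 and 5. Without both AMH 24 h libraries that stood apart, 2154 genes passed (15.1%), 1153 higher (8.11%) and 1001 lower (7.04%). Among them were all 156, which had been called with these same libraries. The direction of all 156 was the same in each of the 10 fits without a library. For the 152 whose 24 h and 4 h libraries did not overlap this was fixed beforehand, so it adds no evidence. Only Dbp and Banp passed in all 10, the highest adjusted p of Dbp being 0.046; Tcap passed in 7 and Hsph1 in 5, and every other gene called passed in fewer than 5. Banp, which encodes a DNA-binding protein of CpG island promoters and was chosen after its values were seen, had 6.16, 7.59, 6.5, 7.24 and 7.67 FPKM at 24 h after AMH, against 2.48, 3.01, 2.74, 3.66 and 2.94 FPKM at 4 h, with no overlap (log2 change 1.02, SE 0.1, adjusted p = 0.0077).

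Promoters of genes that moved are shown with motifs from the clock and from chaperone induction, since these are the groups the results turn on. RefSeq promoters (build GRCm38.p6, 250 bases before to 50 bases after the gene start) were searched on both strands for 10130 of 14220 tested gene symbols, by exact letters. A match is a description and not a binding site. The E-box (CACGTG) was in 10.2% of all 10130 promoters, in 13% of the 54 promoters of genes that fell and in 13.9% of the 72 promoters of genes that rose. The D-box (TTANGTAA) was in 1.27% of all promoters, in 9.26% of those that fell (5 genes, Per3, Slc16a12, Txndc16, Ackr4 and Snx30) and in none that rose. The ROR and REV-ERB element (AANT and GGTCA with 1 base of any kind between them), bound by REV-ERB receptors, was in 0.395% of all promoters. It was in 0 of the 72 and 0 of the 54. The SMAD GC box (GGCGCC) was in 21.8% of all promoters, in 25% of those that rose and in 14.8% of those that fell. For the cAMP response half-site (TGACG) these shares were 31.5%, 36.1% and 37%. Tef, at chr15:81802423-81802722 (+ strand), held 1 E-box and Ciart, at chr3:95882179-95882478 (- strand), held 3; Per3, at chr4:151044616-151044915 (- strand), held 2 D-boxes. The E-boxes of Tef and Ciart and the D-boxes of Per3 are in capitals, each promoter read 5′ to 3′ on the strand of its gene.
Tef: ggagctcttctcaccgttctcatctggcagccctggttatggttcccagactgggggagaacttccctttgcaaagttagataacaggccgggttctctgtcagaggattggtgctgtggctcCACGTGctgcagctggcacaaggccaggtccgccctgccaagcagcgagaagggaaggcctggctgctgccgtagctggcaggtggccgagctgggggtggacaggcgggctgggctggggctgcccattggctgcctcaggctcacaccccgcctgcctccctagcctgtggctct
Ciart: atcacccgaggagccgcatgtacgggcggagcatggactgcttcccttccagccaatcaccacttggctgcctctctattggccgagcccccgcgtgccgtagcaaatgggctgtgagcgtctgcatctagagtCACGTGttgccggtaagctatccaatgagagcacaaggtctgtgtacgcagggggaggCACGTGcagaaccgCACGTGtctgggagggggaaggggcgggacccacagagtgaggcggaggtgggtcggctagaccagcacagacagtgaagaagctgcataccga
Per3: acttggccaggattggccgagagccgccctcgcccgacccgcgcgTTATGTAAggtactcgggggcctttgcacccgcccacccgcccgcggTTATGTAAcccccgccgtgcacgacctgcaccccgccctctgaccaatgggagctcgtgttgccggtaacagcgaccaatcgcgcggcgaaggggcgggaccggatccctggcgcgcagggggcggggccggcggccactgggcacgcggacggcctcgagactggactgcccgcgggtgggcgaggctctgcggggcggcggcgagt

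The ER stress element (CCAAT and CCACG with 9 bases of any kind between them), a motif through which ATF6 is known to induce ER chaperones, was in 0.178% of all promoters and in 4 of the 72 of genes that rose, those of Hspa5, Calr, Creld2 and Syvn1. It stood in 9 of the 18 promoters found for the list of ER chaperone genes. The heat shock element (GAA, TTC and GAA in a row, each 2 bases of any kind apart), bound by heat shock factors, was in 0.415% of all promoters and in those of Hsph1 and Chordc1 among genes that rose. The regions shown are Hspa5 at chr2:34771840-34772139 (+ strand), Calr at chr8:84846882-84847181 (- strand), Creld2 at chr15:88819396-88819695 (+ strand), Syvn1 at chr19:6046326-6046625 (+ strand) and Hsph1 at chr5:149636287-149636586 (- strand). Capitals mark the ER stress element in the first 4, on either strand, and in Hsph1 both an E-box (CACGTG) and the heat shock element on the opposite strand, which lie in the 50 bases after the start.
Hspa5: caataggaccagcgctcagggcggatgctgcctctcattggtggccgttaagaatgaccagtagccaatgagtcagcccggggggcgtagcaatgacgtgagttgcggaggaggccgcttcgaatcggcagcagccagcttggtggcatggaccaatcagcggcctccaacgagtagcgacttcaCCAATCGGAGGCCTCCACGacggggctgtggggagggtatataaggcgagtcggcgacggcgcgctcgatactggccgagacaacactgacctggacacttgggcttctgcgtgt
Calr: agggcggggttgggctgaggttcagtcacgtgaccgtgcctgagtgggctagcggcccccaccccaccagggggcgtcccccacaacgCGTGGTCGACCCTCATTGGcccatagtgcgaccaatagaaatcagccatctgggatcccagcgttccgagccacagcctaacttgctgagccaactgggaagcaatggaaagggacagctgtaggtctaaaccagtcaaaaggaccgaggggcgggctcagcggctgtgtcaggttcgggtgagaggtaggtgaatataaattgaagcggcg
Creld2: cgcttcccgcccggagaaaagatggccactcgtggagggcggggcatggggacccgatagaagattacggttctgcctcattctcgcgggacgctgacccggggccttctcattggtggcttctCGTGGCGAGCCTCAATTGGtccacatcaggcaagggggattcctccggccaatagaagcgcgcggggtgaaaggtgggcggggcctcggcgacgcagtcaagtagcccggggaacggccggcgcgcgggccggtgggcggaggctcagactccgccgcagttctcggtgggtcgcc
Syvn1: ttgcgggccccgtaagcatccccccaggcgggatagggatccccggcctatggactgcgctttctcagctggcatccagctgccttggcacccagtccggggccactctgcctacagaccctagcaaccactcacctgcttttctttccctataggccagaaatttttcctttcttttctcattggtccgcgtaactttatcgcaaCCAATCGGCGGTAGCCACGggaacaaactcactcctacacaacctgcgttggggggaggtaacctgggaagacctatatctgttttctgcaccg
Hsph1: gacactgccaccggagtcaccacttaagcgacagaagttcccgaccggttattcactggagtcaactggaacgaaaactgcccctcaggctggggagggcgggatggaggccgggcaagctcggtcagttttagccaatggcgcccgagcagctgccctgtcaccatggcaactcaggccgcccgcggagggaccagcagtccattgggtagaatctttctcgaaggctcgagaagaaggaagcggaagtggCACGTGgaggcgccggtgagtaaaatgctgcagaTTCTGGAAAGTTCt

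Among the 7 genes listed as clock activators, Arntl rose and none fell, where 0.633% of all genes tested rose and 0.464% fell. Arntl (ENSMUSG00000055116, mm10 chr7:113207465-113314126), which encodes BMAL1, had 5.59, 4.84, 3.7, 3.92 and 5.45 FPKM at 24 h after AMH, against 0.934, 2.78, 1.57, 2.07 and 1.47 FPKM at 4 h. Every 24 h library lay above every 4 h library (log2 change 1.07, SE 0.18, adjusted p = 0.034). Npas2, which encodes a partner of BMAL1, had 4.79 to 6.55 FPKM at 24 h and 3.2 to 4.27 FPKM at 4 h, also without overlap, but did not pass (log2 change 0.5, adjusted p = 0.056). Clock itself had 6.16 to 9.7 FPKM and 5.75 to 7.77 FPKM, which overlapped (log2 change 0.29, adjusted p = 0.16). Rora, a nuclear receptor that activates Arntl, had 0.744 to 3.02 FPKM at 24 h and 3.5 to 4.45 FPKM at 4 h, all lower, with an adjusted p of 0.078.

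Of the 12 clock repressors tested, 5 fell and none rose, where 0.464% of all genes tested fell. Nr1d1 (ENSMUSG00000020889, chr11:98767932-98775333), which encodes REV-ERB alpha, had 30.7, 17.5, 5.02, 12.4 and 17.6 FPKM at 24 h after AMH, against 98.5, 67.7, 95.0, 98.2 and 94.6 FPKM at 4 h. Every 24 h library lay far below every 4 h library (log2 change -2.56, SE 0.35, adjusted p = 0.034). Nr1d2, which encodes REV-ERB beta, had 17.3, 16.7, 5.11, 12.4 and 15.4 FPKM, against 49.9, 40.4, 44.7, 44.1 and 49.5 FPKM at 4 h (log2 change -1.8, SE 0.26, adjusted p = 0.034). Per3, a period gene, had 4.58, 2.54, 0.567, 2.49 and 3.03 FPKM at 24 h and 15.1, 7.86, 12.6, 11.3 and 15.7 FPKM at 4 h. It fell by 1.97 on the log2 scale (SE 0.3, adjusted p = 0.034), and AMH 24 h library 3 was the lowest for all 3 of these genes. Ciart, a repressor of the CLOCK and BMAL1 pair, fell by 0.96 (adjusted p = 0.034).

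The other period and cryptochrome genes stood just outside the threshold and did not share a direction. Per1 had 6.22 to 15.5 FPKM at 24 h after AMH, against 15.9 to 19.4 FPKM at 4 h (log2 change -0.85, adjusted p = 0.053). Per2 had 3.28 to 6.2 FPKM and 5.76 to 10.4 FPKM, which overlapped (log2 change -0.75, adjusted p = 0.053). Cry2 had 3.55 to 10.7 FPKM at 24 h and 11.1 to 13.9 FPKM at 4 h (log2 change -0.91, adjusted p = 0.06). Cry1, which peaks later than the other E-box genes in mouse tissues, was higher, with 7.0 to 11.9 FPKM at 24 h and 4.39 to 6.43 FPKM at 4 h (log2 change 0.64, adjusted p = 0.059). In the fit with all 8 groups, which estimates the spread from 40 libraries, 492 genes rose and 301 fell (3.46% and 2.12%), 793 in all (5.58%). In that fit 8 clock repressors fell and 1 rose. The counts were also 8 and 1 without AMH 24 h libraries 1 and 3, where 7.04% of all genes tested fell and 8.11% rose.

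Clock output genes held the change of the greatest size among the 156 genes called. Dbp (ENSMUSG00000059824, chr7:45705088-45710203), which encodes a PAR-bZIP activator, had 13.1, 14.6, 3.11, 6.81 and 11.9 FPKM at 24 h after AMH, against 113, 63.3, 85.6, 93.5 and 99.9 FPKM at 4 h. The groups were far apart, and Dbp fell by 3.21 on the log2 scale (SE 0.33, adjusted p = 0.0077). Its relatives Tef and Hlf fell too, Tef to 10.1 ± 3.67 FPKM at 24 h, against 38.6 ± 5.6 FPKM at 4 h, and Hlf to 3.46 ± 1.79 FPKM, against 12.2 ± 1.62 FPKM (SD, n = 5 each; log2 changes -1.91 and -1.65, adjusted p = 0.029 and 0.034). Nfil3, the repressor that competes with them at D-boxes, rose, with 11, 12.7, 11.2, 9.61 and 11.6 FPKM at 24 h, against 2.38, 6.86, 3.57, 2.86 and 1.93 FPKM at 4 h (log2 change 1.52, SE 0.23, adjusted p = 0.034). These 4 were the only genes called of 17 tested in the list of clock outputs, where 1.1% of all genes tested were called. The list's median change was 0.15. The list counted 4 that rose and 6 that fell without AMH 24 h libraries 1 and 3, where 8.11% of all genes rose and 7.04% fell.

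Neighbouring genes matter for some of these values, since the strand setting of the counting is not given in the sources used here. Dbp overlaps Sphk2 and Nr1d1 overlaps Thra on the opposite strand, and Per3 overlaps Camta1. Sphk2, a sphingosine kinase gene, moved against Dbp, with 11.2 ± 0.724 FPKM at 24 h and 8.11 ± 0.713 FPKM at 4 h (SD, n = 5 each; log2 change 0.42, adjusted p = 0.045). Thra, a thyroid hormone receptor gene, had 40.2 ± 10.8 FPKM at 24 h and 47.2 ± 5.46 FPKM at 4 h and did not pass (log2 change -0.27, adjusted p = 0.37).

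**Figure D2:**
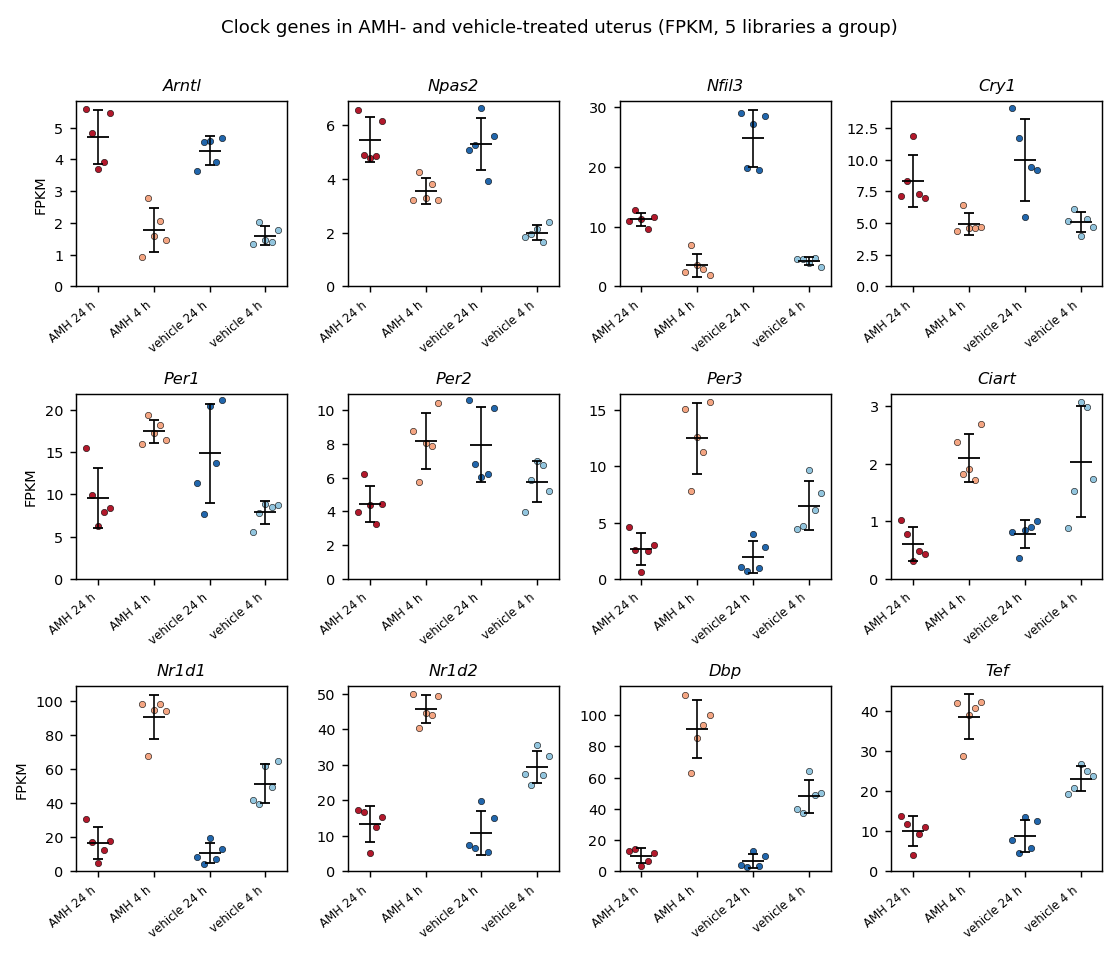
FPKM of 12 clock genes in each of 5 libraries (points) of AMH 24 h, AMH 4 h, vehicle 24 h and vehicle 4 h, with the mean and SD as bars; each panel has its own vertical axis from 0. Nr1d1, Nr1d2, Dbp, Tef and Per3 had lower means and Arntl and Nfil3 higher means at 24 h than at 4 h in both treatments, and Per1 and Per2 had their higher mean at 4 h after AMH but at 24 h after vehicle.

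The same clock genes were compared between times in vehicle-treated uteri, whose libraries are separate from those of AMH. Between vehicle 24 h and vehicle 4 h, 87 genes rose (0.622%) and 46 fell (0.329%) of 13993 tested, 133 in all (0.95%). That count was 34, 28, 484, 75 and 62 without vehicle 24 h library 1 to 5, and 23, 19, 38, 16 and 12 without vehicle 4 h library 1 to 5. The 12 genes called in both treatments moved the same way in both; they were 7.69% of the AMH calls and 9.02% of the vehicle calls, and they comprised Nr1d1, Nr1d2, Dbp, Tef, Arntl, Nfil3, Hsph1, Chordc1, Banp, Polb, Tnfaip8l3 and Adamts15. Of 148 AMH calls tested in vehicle, 131 (88.5%) had the same sign there, beside 66.6% of the 13656 genes tested in both. Dbp fell by 2.86 and Nr1d1 by 2.3 in vehicle (adjusted p = 0.0082 and 0.014), and the difference between the AMH and the vehicle changes of Dbp was -0.34 (SE 0.52, adjusted p = 0.85) and of Nr1d1 -0.25 (SE 0.5, adjusted p = 0.9). Arntl rose by 1.03 in vehicle (adjusted p = 0.0045), a difference of 0.04 (SE 0.21, adjusted p = 0.97). These intervals are wide for Dbp and Nr1d1 and do not show that the changes were alike.

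Levels of Dbp, Arntl and Per1 in the doxorubicin groups are given as values without a test. Dbp averaged 20.3 ± 7.79 FPKM at 24 h and 76.2 ± 17.8 FPKM at 4 h in uteri given doxorubicin with AMH, and 13.6 ± 4.56 and 78.5 ± 20.3 FPKM in uteri given doxorubicin (SD, n = 5 each). In vehicle it averaged 6.64 ± 4.59 FPKM at 24 h and 48.2 ± 10.7 FPKM at 4 h. Arntl averaged 4.21 ± 0.427 FPKM at 24 h and 1.33 ± 0.291 FPKM at 4 h with doxorubicin and AMH, 3.95 ± 0.433 and 0.918 ± 0.238 FPKM with doxorubicin, and 4.28 ± 0.466 and 1.6 ± 0.297 FPKM with vehicle. Each of these 3 treatments had the lower Dbp mean and the higher Arntl mean at 24 h, as AMH had. The means of Per1 did not share 1 direction. They were 8.18 ± 2.12 FPKM at 24 h and 10.9 ± 3.55 FPKM at 4 h with doxorubicin and AMH. With doxorubicin they were 15.5 ± 4.35 and 13.9 ± 3.39 FPKM (SD, n = 5 each). In each of these treatments the 24 h and 4 h libraries overlapped for Per1, so the means do not settle a direction.

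Chaperones of the ER made up the group with the most genes called in the lists that rose. Of 20 genes of this list tested, 6 rose and none fell, where 0.633% of all genes tested rose. The list's median change was 0.70, beside 0.01 for all genes. Hspa5 (ENSMUSG00000026864, chr2:34771970-34777547), which encodes the main ER chaperone BiP, had 71.0, 137, 227, 140.0 and 154 FPKM at 24 h after AMH, against 52.1, 71.5, 50.5, 46.6 and 51.1 FPKM at 4 h. The 24 h library 1 fell within the range of the 4 h libraries and the other 4 lay above it (log2 change 1.33, SE 0.25, adjusted p = 0.042). Calr, the calcium-binding chaperone calreticulin, had 152, 203, 385, 186 and 203 FPKM at 24 h and 89.7, 127, 96.1, 102 and 82.1 FPKM at 4 h, without overlap (log2 change 1.11, SE 0.22, adjusted p = 0.045). Creld2, an ER disulphide isomerase gene, had 18.8, 28.3, 49.8, 36.2 and 31.1 FPKM, against 12.7, 14.2, 11.4, 10.4 and 11.3 FPKM at 4 h (log2 change 1.32, SE 0.21, adjusted p = 0.034). All 3 were highest in AMH 24 h library 3 and lowest, at that time, in library 1.

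Sdf2l1, a BiP cofactor gene, changed most among them, with 5.32, 19.9, 32.2, 19.8 and 18.4 FPKM at 24 h after AMH, against 2.82, 4.31, 3.23, 3.85 and 2.57 FPKM at 4 h (log2 change 2.04, SE 0.36, adjusted p = 0.039). Hyou1, a large ER chaperone of the HSP70 family, averaged 21.3 ± 7.66 FPKM at 24 h and 8.21 ± 1.11 FPKM at 4 h (SD, n = 5 each; log2 change 1.21, adjusted p = 0.042). Syvn1, a ubiquitin ligase of ER-associated degradation, averaged 17.2 ± 1.87 and 11.4 ± 0.509 FPKM (log2 change 0.55, adjusted p = 0.034). It overlaps Mrpl49 on the opposite strand. Hsp90b1 and Pdia6, a chaperone and a disulphide isomerase, had 24 h libraries all above the 4 h ones without passing (log2 changes 0.93 and 0.98, adjusted p = 0.059 and 0.057). Without AMH 24 h library 3, 11 members of the list rose, where 1.75% of all genes tested rose. Without libraries 1 and 3 together 16 rose and none fell, where 8.11% of all genes rose and 7.04% fell. In vehicle no member passed and the median change was 0.44; no member passed the test of the difference between treatments.

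Cytosolic heat shock genes moved the same way. Of 21 tested, 4 rose and none fell, where 0.633% of all genes tested rose, and the median change of the list was 0.54. Hsph1 (ENSMUSG00000029657, chr5:149614287-149636376), which encodes the HSP110 exchange factor, had 10.6, 21.3, 18.9, 17.7 and 21.2 FPKM at 24 h after AMH, against 3.88, 7.3, 3.7, 4.15 and 4.32 FPKM at 4 h. No 24 h library reached down to the 4 h range (log2 change 1.74, SE 0.2, adjusted p = 0.013). Stip1, a co-chaperone linking HSP70 and HSP90, averaged 71.5 ± 19 FPKM at 24 h and 35.2 ± 3.79 FPKM at 4 h (SD, n = 5 each; log2 change 0.97, adjusted p = 0.034). Chordc1 and Dnajb1, an HSP90 co-chaperone and an HSP40 protein, rose by 0.63 and 0.61 (adjusted p = 0.034 and 0.039). In vehicle Hsph1 rose by 1.74 as well (adjusted p = 0.032), with 17.8 to 75.4 FPKM at 24 h and 8.05 to 12.8 FPKM at 4 h. There 4 genes of the list rose, beside 0.622% of all genes tested in vehicle. The summed cytosolic list ran from 2090 FPKM in AMH 24 h library 1 to 2992 FPKM in library 3, against 1727 to 1986 FPKM at 4 h. Without both libraries 14 members rose, where 8.11% of all genes tested rose, and the list median was 0.48.

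**Figure D3:**
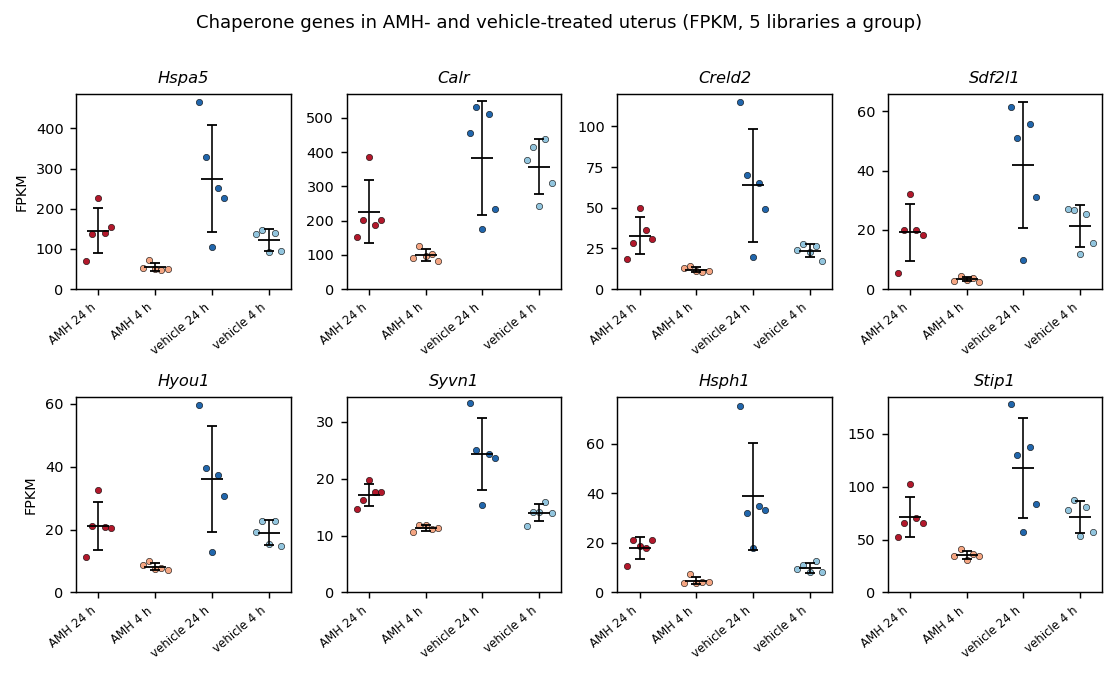
FPKM of 8 chaperone genes, 6 of the ER and 2 of the cytosol (Hsph1, Stip1), in each of 5 libraries (points) of AMH 24 h, AMH 4 h, vehicle 24 h and vehicle 4 h, with the mean and SD as bars; vertical axes start at 0. After AMH all 8 had their higher mean at 24 h, and the levels after vehicle were more spread at 24 h than at 4 h.

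In the pathway of AMH itself, a single gene of the list passed between the 2 times. Of 13 receptors and SMADs tested, 1 fell and none rose, where 0.464% of all genes tested fell and 0.633% rose. The list's median change was -0.10, with 11 changes below 0 and 2 above 0. Smad9 (ENSMUSG00000027796, chr3:54755582-54801257), which encodes a SMAD of the BMP and AMH branch and is itself induced by it, had 1.03, 1.38, 0.388, 0.882 and 1.95 FPKM at 24 h after AMH, against 2.74, 3.37, 3.05, 2.97 and 2.71 FPKM at 4 h. All 24 h libraries lay below all 4 h libraries (log2 change -0.94, SE 0.18, adjusted p = 0.042). In vehicle Smad9 was below the filter on low values, with 0.357 ± 0.204 FPKM at 24 h and 0.51 ± 0.22 FPKM at 4 h (SD, n = 5 each), and the difference between treatments over 20 libraries was -0.79 (SE 0.24, adjusted p = 0.18). With doxorubicin and AMH it averaged 1.6 ± 0.286 FPKM at 24 h and 1.62 ± 0.308 FPKM at 4 h, and with doxorubicin it had 0.708 to 0.945 FPKM at 24 h and 0.255 to 1.02 FPKM at 4 h. Amhr2, the AMH receptor, had 3.09 to 6.41 FPKM at 24 h after AMH and 5.86 to 9.44 FPKM at 4 h, which overlapped (log2 change -0.54, adjusted p = 0.11).

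Of 15 genes tested from the list of SMAD1/5/9 targets, Smad9 alone passed, where 1.1% of all genes tested passed. Id1, an inhibitor of bHLH factors and a direct BMP target, had 57.9, 100, 101, 86.0 and 64.3 FPKM at 24 h after AMH, against 56.1, 58.8, 53.4, 51.6 and 45.5 FPKM at 4 h (log2 change 0.58, SE 0.16, adjusted p = 0.083). Its relatives leaned the other way: Id2 had 40.7 to 58.2 FPKM at 24 h and 66.4 to 72.4 FPKM at 4 h (log2 change -0.48, adjusted p = 0.053), and Id3 37.9 to 63.6 and 62.6 to 82.0 FPKM (log2 change -0.51, adjusted p = 0.075). Atoh8, a bHLH gene and BMP target, overlapped between the times (log2 change -0.37, adjusted p = 0.28). Of these targets 4 fell and 1 rose without AMH 24 h libraries 1 and 3, where 7.04% of all genes fell and 8.11% rose.

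Whether the change between times differed between AMH and vehicle was tested as an interaction over 20 libraries and 15084 genes. The AMH change lay below the vehicle change for 15 genes (0.0994%) and above it for 10 (0.0663%), 25 in all (0.166%); under median-of-ratios scaling the split was 9 and 3. For 12 of the 25 the change was negative in AMH and positive in vehicle. Errfi1 and Ctgf passed in each of the 20 fits without a library, and 6 of the 25 passed in at least 10. The count was 210, 5, 11, 2 and 19 without AMH 24 h library 1 to 5, 2, 10, 2, 5 and 9 without AMH 4 h library 1 to 5, 23, 7, 18, 60 and 19 without vehicle 24 h library 1 to 5, and 2, 3, 2, 8 and 3 without vehicle 4 h library 1 to 5. High-oestrogen scores, over 0.6 above the median, were found in 5 of these 20 libraries, which were AMH 24 h library 3, vehicle 24 h libraries 1, 2 and 4, and vehicle 4 h library 1. Without those 5, a choice made after seeing the data, 839 of the 15084 genes passed, among them all 25. The 25 had been called from these same libraries, so their passing again is not separate evidence. Only 4 of the 156 genes called between AMH 24 h and AMH 4 h were among the 25, namely Wnt5b, Serinc3, Mettl1 and Smyd5.

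Errfi1 (ENSMUSG00000028967, chr4:150853919-150868892), which encodes a feedback inhibitor of EGF receptors, had 22.2, 23.1, 19, 14.8 and 14.6 FPKM at 24 h after AMH, against 21.9, 28.7, 19.5, 18.0 and 20 FPKM at 4 h, which overlapped (log2 change -0.2, adjusted p = 0.42). After vehicle it had 49.5, 52.0, 69.1, 38.5 and 62.9 FPKM at 24 h, against 14.5, 14.0, 16.1, 17.2 and 13.9 FPKM at 4 h (log2 change 1.76, adjusted p = 0.00087). The difference between the changes was -1.96 (SE 0.22, adjusted p = 0.00071), and vehicle at 24 h was the group of the 4 that stood apart. In the doxorubicin groups Errfi1 averaged 16.0 ± 1.97 FPKM at 24 h and 14.4 ± 3.52 FPKM at 4 h with AMH, and 42.6 ± 15.3 and 16.9 ± 7.5 FPKM without it (SD, n = 5 each).

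Ctgf, which encodes the matricellular protein CCN2, showed a crossing pattern. It had 15.5, 10.9, 6.86, 8.3 and 9.96 FPKM at 24 h after AMH, against 14.7, 19.6, 18.8, 17.2 and 17.2 FPKM at 4 h (log2 change -0.75, adjusted p = 0.061). In vehicle it had 9.12, 17.6, 26.1, 16.9 and 20.7 FPKM at 24 h, against 4.81, 5.13, 6.51, 4.47 and 4.91 FPKM at 4 h (log2 change 1.57, adjusted p = 0.018). The levels at 24 h after AMH overlapped those at 24 h after vehicle, while at 4 h every AMH library was above every vehicle library (difference between the changes -2.32, SE 0.3, adjusted p = 0.0019). Cyr61, which encodes the related CCN1, had 7.14 to 13.8 FPKM at 24 h and 8.0 to 18.5 FPKM at 4 h after AMH, and 21.2 to 81.9 FPKM and 4.29 to 9.51 FPKM after vehicle (difference -2.18, SE 0.43, adjusted p = 0.048). It passed in 4 of the 20 fits without a library.

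Jun, an AP-1 factor gene, averaged 69.5 ± 17.8 FPKM at 24 h and 77.2 ± 6.12 FPKM at 4 h after AMH, and 92.4 ± 17.6 and 37.5 ± 2.65 FPKM after vehicle (SD, n = 5 each; difference between the changes -1.45, SE 0.23, adjusted p = 0.029, passing in 13 of 20 fits without a library). Per1, a period gene that glucocorticoids also induce, had 15.5, 9.95, 6.22, 7.95 and 8.37 FPKM at 24 h and 15.9, 19.4, 17.3, 18.2 and 16.4 FPKM at 4 h after AMH. After vehicle it had 11.3, 7.68, 20.5, 13.7 and 21.1 FPKM at 24 h and 5.52, 7.81, 8.84, 8.52 and 8.72 FPKM at 4 h. Its change was downward in AMH and upward in vehicle (difference -1.62, SE 0.32, adjusted p = 0.048, passing in 3 of 20 fits), and Per2 had a like difference that did not pass (-1.15, SE 0.25, adjusted p = 0.065).

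**Figure D4:**
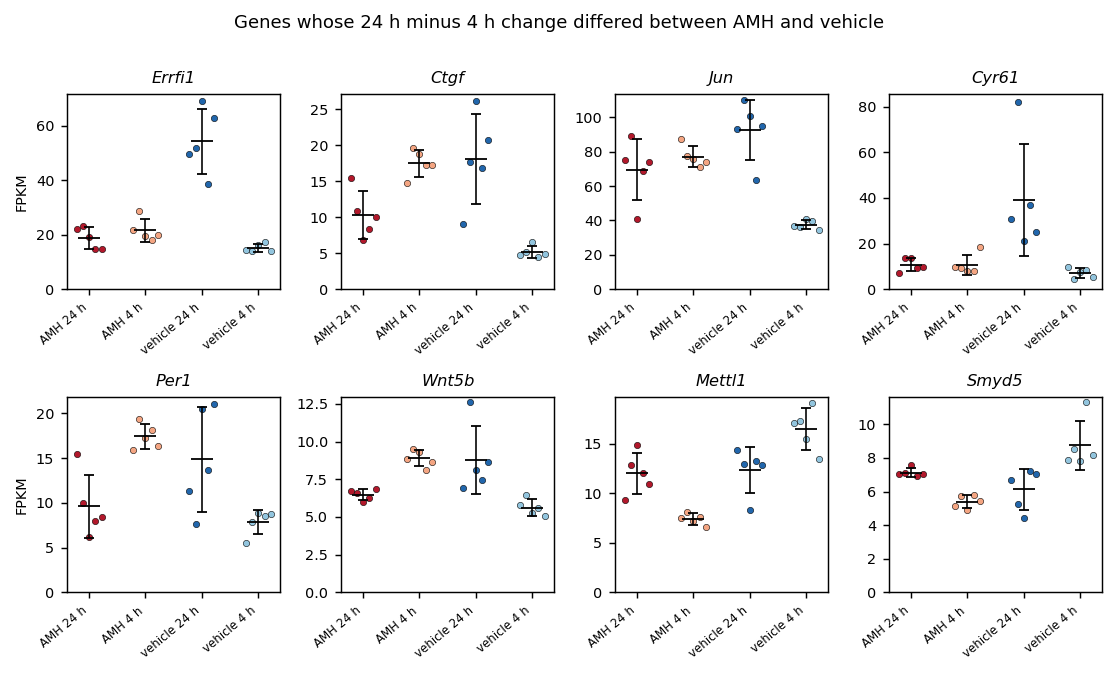
FPKM of 8 genes whose change from 4 h to 24 h differed between AMH and vehicle, in each of 5 libraries (points) of AMH 24 h, AMH 4 h, vehicle 24 h and vehicle 4 h, with the mean and SD as bars; vertical axes start at 0. Errfi1 and Cyr61 were high in vehicle 24 h, Ctgf and Jun were low in vehicle 4 h, and Mettl1 and Smyd5 were high in vehicle 4 h and low in AMH 4 h.

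Immediate early and glucocorticoid-responsive genes as lists had few calls in AMH. None of 23 immediate early genes tested passed between AMH 24 h and AMH 4 h (median change 0.00), whereas 3 of 24 rose in vehicle (median 0.48), and Jun, Ctgf and Cyr61 passed the test of the difference. Of 20 glucocorticoid-responsive genes tested in AMH, 2 rose and none fell (median -0.22). In vehicle 2 of 21 rose (median 0.53), and Errfi1 and Per1 passed the test of the difference. Over all genes tested, 0.633% rose and 0.464% fell in AMH, 0.622% rose in vehicle, and 0.166% passed the test of the difference. Without AMH 24 h libraries 1 and 3 the glucocorticoid list counted 3 that rose and 7 that fell, and the immediate early list 4 and 1, in a fit in which 8.11% of all genes tested rose and 7.04% fell. Tsc22d3, the classical glucocorticoid target GILZ, had 37.3, 20.1, 10.7, 16.5 and 18.5 FPKM at 24 h after AMH, against 33.0, 36.9, 34.4, 36.4 and 32.9 FPKM at 4 h (log2 change -0.83, SE 0.25, adjusted p = 0.092). Its difference from the vehicle change was -1.61 (SE 0.44, adjusted p = 0.13). Gadd45g and Cdkn1a, which also serve the response to stress and DNA damage, were the 2 that rose. Gadd45g had 39.4, 70.9, 102, 60.7 and 57.8 FPKM at 24 h, against 26.3, 25.0, 25.7, 23.5 and 23.6 FPKM at 4 h (log2 change 1.32, SE 0.2, adjusted p = 0.034). Cdkn1a, the cell cycle inhibitor p21, averaged 6.91 ± 2.51 and 2.13 ± 0.611 FPKM (SD, n = 5 each; log2 change 1.3, adjusted p = 0.038), and in vehicle its change was also 1.3 without passing (adjusted p = 0.077).

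Wnt5b, a WNT ligand, and Dkk2, a WNT antagonist, were the only genes of their lists that passed in AMH. The lists had 11 ligands and 17 targets and antagonists tested, and 1.1% of all genes tested passed. Wnt5b had 6.7, 6.62, 5.98, 6.24 and 6.88 FPKM at 24 h after AMH, against 8.85, 9.5, 9.34, 8.13 and 8.67 FPKM at 4 h (log2 change -0.4, SE 0.07, adjusted p = 0.042). In vehicle the change was 0.53 (adjusted p = 0.1), a difference of -0.94 (SE 0.16, adjusted p = 0.035). With all 8 groups in the fit neither its change in AMH nor this difference passed (adjusted p = 0.11 and 0.083). It overlaps Fbxl14 on the opposite strand. Frzb, a secreted WNT antagonist, did not pass within AMH (2.09 to 3.36 FPKM at 24 h, 2.61 to 4.66 FPKM at 4 h, adjusted p = 0.17), but its change lay below that in vehicle (difference -1.18, SE 0.2, adjusted p = 0.035). Dkk2 fell to 11.3 ± 3.82 FPKM at 24 h, against 23.5 ± 3.44 FPKM at 4 h (SD, n = 5 each; log2 change -1.05, adjusted p = 0.042).

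Mettl1 and Smyd5, a tRNA methyltransferase gene and a histone methyltransferase gene, went the other way. Mettl1, which overlaps Eef1akmt3 on the opposite strand, averaged 12 ± 2.07 FPKM at 24 h and 7.39 ± 0.569 FPKM at 4 h after AMH (SD, n = 5 each; log2 change 0.61, adjusted p = 0.042) and 12.3 ± 2.31 and 16.5 ± 2.14 FPKM after vehicle (difference 1.02, SE 0.18, adjusted p = 0.038). Smyd5 averaged 7.12 ± 0.265 and 5.39 ± 0.378 FPKM after AMH and 6.12 ± 1.23 and 8.74 ± 1.45 FPKM after vehicle (difference 0.81, SE 0.16, adjusted p = 0.048). The differences of Mettl1 and Smyd5 passed in 6 and 5 of the 20 fits without a library, and with all 8 groups in the fit neither passed (adjusted p = 0.086 and 0.16), nor did the change of Smyd5 in AMH (adjusted p = 0.18). Sgsh, a lysosomal sulphatase gene, Pm20d2 and Diras2 also had a higher change in AMH than in vehicle (differences 0.81, 0.96 and 1.27, adjusted p = 0.035, 0.035 and 0.048), and with all 8 groups only that of Sgsh passed (adjusted p = 0.027, 0.12 and 0.13).

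Further genes among the largest rises were highest in AMH 24 h library 3. Inhbb, the beta B subunit shared by activin B and inhibin B, had 22.1, 29.3, 79.5, 22.6 and 24.1 FPKM at 24 h after AMH, against 8.35, 5.61, 11.3, 4.46 and 7.8 FPKM at 4 h (log2 change 1.97, SE 0.34, adjusted p = 0.039). It was the only gene called of 5 tested in the list of ovary markers, where 1.1% of all genes tested were called. The list's summed level of 64.4 to 265 FPKM at 24 h and 47.6 to 53.4 FPKM at 4 h includes Inhbb itself. Of the 14 listed, 9 were below the filter on low values, Cyp19a1 and Fshr among them, and none was 0 in all 10 libraries. The part of ovarian tissue in the change of Inhbb was not tested. Without library 3 its change was 1.63 (adjusted p = 0.014). Ptpn5, a tyrosine phosphatase gene, had 3.3, 6.01, 16.5, 5.74 and 4.42 FPKM at 24 h, against 1.18, 0.908, 1.07, 0.868 and 0.777 FPKM at 4 h (log2 change 1.88, SE 0.31, adjusted p = 0.034). Ppa1, an inorganic pyrophosphatase gene, and Cdr2 rose by 1.42 and 1.19 (adjusted p = 0.048 and 0.042). None of these 4 passed in vehicle, and none passed the test of the difference (adjusted p = 0.52, 0.54, 0.3 and 0.61).

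Among the largest falls outside the clock, Tcap, which encodes the titin cap protein of striated muscle, had 1.28, 0.934, 0.183, 1.05 and 1.08 FPKM at 24 h after AMH, against 4.98, 4.19, 3.82, 4.59 and 4.43 FPKM at 4 h (log2 change -1.53, SE 0.17, adjusted p = 0.0088). Every 24 h library was well below every 4 h library. In vehicle Tcap was below the filter, with 0.228 ± 0.336 FPKM at 24 h and 0.888 ± 0.824 FPKM at 4 h (SD, n = 5 each). Tmem196, Adam11, Unc93a2 and Mylip, a ubiquitin ligase that degrades the LDL receptor, fell by 1.24, 1.06, 1.04 and 1.01 (adjusted p = 0.034, 0.042, 0.042 and 0.042). Ephx1, the microsomal epoxide hydrolase and a p53 target, fell to 44.7 ± 12.9 FPKM, against 87.2 ± 7.47 FPKM at 4 h (SD, n = 5 each; log2 change -0.99, adjusted p = 0.039). It and Cdkn1a were the genes called of 29 p53 targets tested, where 1.1% of all genes tested were called. The median change of these targets was 0.04. Without AMH 24 h libraries 1 and 3 the list counted 5 that rose and 6 that fell, where 8.11% of all genes rose and 7.04% fell.

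Proliferation and sterol genes leaned upward at 24 h after AMH without a gene passing, and AMH 24 h library 3 was the highest for them. All 22 replication genes and all 28 mitosis genes tested had a positive change, with medians of 0.82 and 0.86, and none passed. Mki67, a marker of cycling cells, had 0.962, 1.65, 35.6, 19.6 and 12.5 FPKM at 24 h, against 2.25, 1.74, 11.7, 2.48 and 7.17 FPKM at 4 h (log2 change 0.81, SE 0.8, adjusted p = 0.52). Libraries 1 and 2 at 24 h were thus below all 4 h libraries, and the other 3 above them. Top2a, topoisomerase II alpha, had 1.02, 1.63, 49.3, 19.9 and 11.2 FPKM, against 1.96, 2.1, 8.74, 2.23 and 6.66 FPKM at 4 h (log2 change 0.99, adjusted p = 0.44). Without library 3 the medians were 0.38 and 0.38. All 21 cholesterol synthesis genes tested were positive as well (median 0.63, none called, 9 with all 24 h libraries above all 4 h ones, beside 4.96% of all genes). Without library 3 their median was 0.41 and 5 rose, where 1.75% of all genes rose. Igf1, a growth factor of the stroma that oestrogen induces, had 15.7, 25.3, 62.7, 32.5 and 34.8 FPKM at 24 h and 11.3, 16.8, 13.0, 12.2 and 10.1 FPKM at 4 h (log2 change 1.25, SE 0.29, adjusted p = 0.061).

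**Figure D5:**
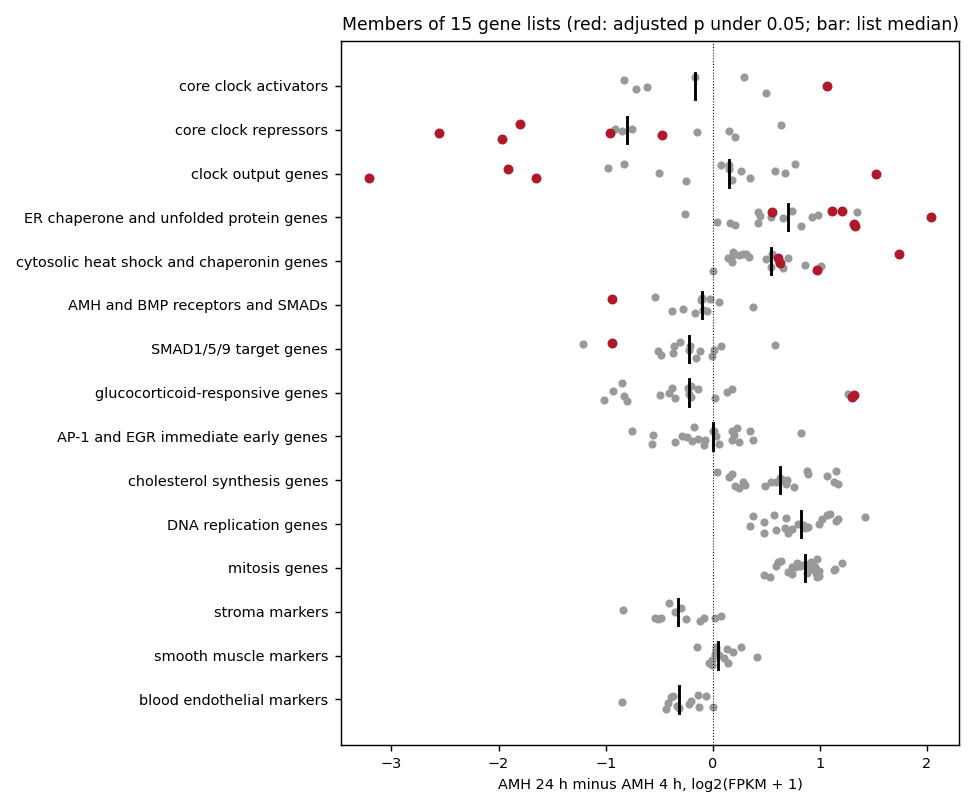
Change between AMH 24 h and AMH 4 h (horizontal axis, difference of group means in log2(FPKM + 1)) of each tested member of 15 gene lists (rows); red points passed at an adjusted p under 0.05, grey points did not, and the black bar is the list median. The list medians run from -0.80 for clock repressors to 0.86 for mitosis genes, and the mitosis and replication lists hold no red point.

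Of the 52 lists, 51 had a tested member and 13 had a called gene. Markers of the main uterine compartments held no called gene, with medians of -0.32 for stroma (12 tested), 0.05 for smooth muscle (14), 0.03 for epithelium (12), -0.32 for blood endothelium (13) and -0.19 for macrophages (13). The summed smooth muscle markers ranged from 3642 to 6084 FPKM at 24 h and from 3957 to 4884 FPKM at 4 h, those of epithelium from 648 to 2093 and from 950.0 to 1443 FPKM, and those of stroma from 956 to 1542 and from 1231 to 1664 FPKM. All 3 sums overlapped between the times, and each ranged more widely at 24 h. Further cell-type lists, also without a called gene, had medians of 0.68 for mesothelium (7 tested, all above 0), -0.59 for erythrocytes (5), -0.5 for MHC class II and dendritic cells (7) and -0.45 for lymphocytes (9). Summed mesothelial markers were 104 to 343 FPKM at 24 h and 112 to 201 FPKM at 4 h. Summed nerve and glia markers were 28.0, 140.0, 124, 112 and 119 FPKM at 24 h, against 55.2, 62.9, 54.3, 36.6 and 45.4 FPKM at 4 h, so that 4 of 5 libraries at 24 h lay above all at 4 h; the median of the 3 of these markers tested was -0.06. The 10 neutrophil markers were all below the filter, with summed levels of 1.07 to 11 FPKM at 24 h and 0.824 to 1.57 FPKM at 4 h. What part the differing tissue content of the 24 h libraries had in the genes that rose or fell was not tested, beyond the values without libraries 1 and 3.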

How the data were processed

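Bulk RNA-seq of mouse uterus was deposited by the authors as FPKM values per gene (reads scaled to gene length and library size, per the file headers), on mouse build mm10 per the submitters' processing notes. For the aligner, the counter, the annotation release and the strand setting, the entry is: not given in the sources used here. Whole reads could be rebuilt from the FPKM values and gene lengths (100% of values whole within 0.01 reads), and reads in genes per library gave the depth. Intervals on counts were not used; precision comes from the spread between 5 libraries a group.

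Genes with at least 1 FPKM in at least 5 of the libraries compared were tested on log2(FPKM + 1), which understates changes of low genes, with limma 3.58.1 in R 4.3.3 (moderated test, Benjamini-Hochberg adjustment over all genes tested, threshold 0.05; files were read with the R package data.table, version 1.17.8). The AMH and vehicle comparisons used their own 10 libraries, and the difference between them was an interaction over 20. Where a fit leaves out a library, the group keeps the other libraries. Tables and figures were made with Python 3.11.15, pandas 2.3.3 and matplotlib 3.10.9. No column of values was left without a sample (0).

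The comparison, the 52 gene lists and the tests were chosen with earlier results of these data known. Genes named were the 12 rising and 12 falling protein-coding calls with the largest change, a mean of at least 2 FPKM in the higher group and groups that did not overlap; up to 3 calls with the smallest p from each list; all clock activators and repressors, AMH and BMP receptors, SMADs and their targets; a fixed set of clock, glucocorticoid, cell cycle and oestrogen genes; and, for the difference, the 5 calls with the smallest p in each direction. That made 96 genes, and those the results turn on are described; a few are not reported here. Of these, 40 overlap another gene and 10 a protein-coding one. Other genes are named as overlapping partners, uterine markers or members of a short count. On simulated data, the AMH comparison (14224 genes) recovered 50.7% of 1.5-fold, 89.6% of 2-fold and 95.5% of 4-fold changes. It called 7 of 14024 unchanged genes. The interaction (15084 genes) recovered 19.4%, 56.7% and 92.4% and called 7 of 14884. Pearson correlations between libraries were 0.8531 to 0.9675 within AMH 24 h and 0.9758 to 0.9809 within AMH 4 h. Whether these rates hold at such unequal spread, or where single libraries shift many genes together, was not tested. Alternatives were another pseudocount, other filters, median-of-ratios scaling, all 8 groups in the fit, library weights, robust variance shrinkage, a replicate block, voom on the rebuilt reads (which called 289 genes in AMH, with TMM factors computed by the same formula outside edgeR), and fits without single libraries. Fits without AMH 24 h libraries 1 and 3 together, or without the high-oestrogen libraries, were chosen after seeing the data.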

Additional observations from a re-analysis of the deposited data

Results flagged for a closer look

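Single libraries far from the other 4 of their group, by the gap to the nearest library relative to the range, were found for these genes described above. Chance alone marks about 1 in 20 groups. AMH 24 h library 3 was far above the rest for Cry1 (11.9 FPKM), Calr (385 FPKM), Ptpn5 (16.5 FPKM), Inhbb (79.5 FPKM), Ppa1 (33.6 FPKM) and Smyd5 (7.58 FPKM), and far below it for Adam11 (1.4 FPKM). AMH 4 h library 2 was far above the rest for Cry1 (6.43 FPKM), Hsph1 (7.3 FPKM) and Hspa5 (71.5 FPKM), and far below it for Nr1d1 (67.7 FPKM) and Tef (28.8 FPKM). AMH 4 h library 5 was far above the rest for Cyr61 (18.5 FPKM).

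The change between 24 h and 4 h differed between AMH and vehicle by the interaction test (limma, adjusted over 15084 genes) for 25 genes. The AMH change minus the vehicle change was -2.32 for Ctgf, -2.18 for Cyr61, -1.96 for Errfi1, -1.62 for Per1, -1.45 for Jun, -1.25 for Spsb1, -1.23 for Mettl7a1, -1.18 for Frzb, -1.06 for Tiparp, -0.98 for Gm7331, -0.97 for Rps13-ps1, -0.94 for Wnt5b, -0.86 for Myocd, -0.77 for Serinc3 and -0.76 for Gm13408. It was 1.27 for Diras2, 1.07 for Gamt, 1.02 for Mettl1, 0.96 for Pm20d2, 0.84 for Borcs5, 0.81 for Sgsh and for Smyd5, 0.73 for Cep41, 0.64 for Abca2 and 0.59 for Pomk. Rps13-ps1, Gm7331 and Gm13408 carry pseudogene or predicted-gene names, and reads shared with a near-identical copy make their values uncertain. Myocd, the coactivator of smooth muscle genes, was the only smooth muscle marker among them, with a change of -0.01 in AMH and 0.86 in vehicle.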

How the results depend on the processing

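Counts of genes called rested on single libraries and on how the spread was estimated. The direction of the 156 AMH calls held in all 10 fits without a library, which was fixed beforehand for the 152 whose groups did not overlap. Leaving out 1 library gave 2 to 2376 genes in AMH, 12 to 484 in vehicle and 2 to 210 for the difference. For AMH, 20 genes passed with no filter, 793 with all 8 groups in the fit, 2665 with library weights, 289 with voom on rebuilt reads and 2154 without AMH 24 h libraries 1 and 3. For vehicle, 45 passed with no filter, 1191 with all 8 groups and 1006 with library weights. For the difference, 12 passed with a pseudocount of 0.1, 3 with no filter, 12 with median-of-ratios scaling, 181 with library weights, 9 with voom, 53 without AMH 24 h libraries 1 and 3 and 839 without the high-oestrogen libraries. The share of calls that were higher was 57.7% in AMH, but 35% with no filter. Replicate numbers were not taken as pairing the samples, since not every pair's correlation was over 0.1: correlations of deviations between same-numbered libraries were -0.08, 0.13, 0.05, -0.1 and 0.19 in AMH and 0.15, 0.21, 0.28, -0.02 and 0.33 in vehicle, where 4 of 5 were over 0.1, and only AMH number 5 matched its own number best. With the replicate block, 4 genes passed in AMH, 21 in vehicle and 6 for the difference. Other counts stayed within 1.5 times.

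Among values for single genes described, 841 of the AMH alternatives kept direction and side of the threshold, 325 lost the call, 73 gained one and 6 turned direction; for the difference 469 kept both, 164 lost the call and 14 gained one. All 6 turns were Cyr61 in AMH, whose change of 0.03 became -0.00 with voom and ranged from -0.07 to 0.23 without single libraries; the cause was not tested. Depth limits low genes such as Ciart and Smad9, which lie near 1 FPKM.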
